A study of Bos taurus with 6 samples.

Results

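The AP-1 transcription factor family was followed through 8 genes, FOS, FOSB, FOSL1, FOSL2, JUN, JUNB, JUND and ATF3. Its members were all probes that carried 1 of these symbols in the array's probe annotation, which gave 12 of 43794 probes: 2 for FOS, 3 for FOSB, 2 for FOSL2 and 1 for each of the others. Each probe was treated apart, because probes of FOS disagreed. Of the 12, 10 entered the tests, which took 31957 probes in all. To enter, a probe had to be brighter than the 95th percentile of the negative control spots, in either channel, on 3 or more of the 6 arrays.

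RNA came from 3 superstimulated and 3 non-superstimulated multiparous beef cows, which are different animals. Superstimulation means giving extra gonadotropin so that several ovarian follicles mature together. Gonadotropins are the hormone named in the labels of non-superstimulated cows too, and the labels name no tissue. Same-numbered cows of the groups shared a two-colour array and, with exchanged dyes, another one on a different slide, so that n was 3 pairs, and slide and dye orientation cannot be told apart.

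AP-1 is a dimer of basic leucine zipper (bZIP) proteins. JUN proteins can pair with themselves or with FOS proteins, whereas FOS proteins need a partner, and most members are immediate early genes, transcribed within minutes of a hormone, growth factor or stress signal through kinases that act on factors already present. In granulosa cells, which line the ovarian follicle and surround the egg, gonadotropins are known to induce several members. The family is known for driving proteases, matrix genes and cell cycle regulators.

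By the labels alone, the sign of the ratios is not settled. The dye field of each array places the superstimulated cow in Cy5 (red) on arrays 1 to 3 and in Cy3 (green) on arrays 4 to 6, but the example in the series' design text reads the other way, which would turn every sign. All ratios are log2 superstimulated over non-superstimulated by the dye fields. Levels are normalized log2 intensities per cow and are compared only within a probe.

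Median foreground intensity was 152 to 299 in red and 161 to 283 in green, and the share of probes above the negative controls was 47.3% to 63.2% in red and 65.4% to 71.2% in green. Of 12 granulosa markers, 11 entered the tests and 8 exceeded the controls in both channels of all arrays. Of the markers that entered, so did 7 of 10 for theca and stroma and 5 of 7 for luteinized cells. So did 2 of 5 leukocyte markers, and none of 5 endothelial, 5 red cell and 6 oocyte markers. Superstimulated cow 2 stood apart in several AP-1 genes, so values are also given without its pair.

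One probe of FOS gave the largest AP-1 ratio and was higher in the superstimulated cow of every pair, whereas FOSL1 and ATF3 were far higher in superstimulated cow 2 alone. FOSB, FOSL2, JUNB and JUND had pair ratios between -0.76 and 0.76 on the log2 scale, and JUN was not above the negative controls. After adjustment over all probes, no AP-1 probe differed between the groups, and with 3 pairs no other probe did. With limma, the adjusted p was under 0.05 for 0 of 10 AP-1 probes, as for 0% of all 31957. At an unadjusted p under 0.05 there were 1040 probes, 1.52% of all being higher and 1.74% lower in superstimulated cows, and 1 AP-1 probe, of FOS, was among the higher. A mean log2 ratio above 1 was held by 3 AP-1 probes, those of FOS, FOSL1 and ATF3, where 0.967% of all probes held it, and one below -1 by 0, where 0.582% of all probes did.

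FOS is the founding member of the FOS branch and a standard marker of recent stimulation. Its probe EMBV3_35481 had levels of 9.04, 12.89 and 11.37 in superstimulated cows 1, 2 and 3, against 7.63, 8.02 and 9.0 in non-superstimulated cows 1, 2 and 3. The groups did not overlap, although superstimulated cow 1 and non-superstimulated cow 3 nearly met. It was the 1 AP-1 probe to separate the groups upward, as 2.59% of all probes did, and 0 separated them downward, as 2.77% of all probes did.

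The foreground intensity of this FOS probe showed the same order before any correction. In pair 2 it was 6285 and 8265 in the superstimulated cow on the 2 arrays, against 310 and 378 in the non-superstimulated cow. In pair 3 it was 2674 and 3102, against 537 and 584, and in pair 1 it was 524 and 603, against 223 and 233. Every one of these values exceeded the 95th percentile of the negative controls in its channel.

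The log2 ratio of this FOS probe was 1.68 and 1.13 on the 2 arrays of pair 1, 5.08 and 4.66 in pair 2, and 2.69 and 2.05 in pair 3. All 6 arrays thus gave a positive sign, for this 1 AP-1 probe and 2.76% of all probes, and 0 AP-1 probes and 2.75% of all probes were negative on all 6. The mean over pairs was 2.88 ± 1.79 (SD, n = 3 pairs), or 7.37-fold, with an unadjusted p of 0.0305 and an adjusted p of 0.999 by limma. By the size of the mean ratio in either direction, the probe ranked 6 of 31957.

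The FOS ratio differed in size between pairs, at 2.64-fold, 29.2-fold and 5.18-fold in pairs 1, 2 and 3 (adjusted p = 1.3e-05 by limma for a difference between pairs). That test sets the pairs against the disagreement between the arrays of a swap that is left after a dye term shared by all pairs. This remainder, called the swap error here, is purely technical. The test passed for 12887 of 31957 probes (40.3%) and for 7 of the 10 AP-1 probes. Without pair 2 it passed for 9784 of all probes and 4 AP-1 probes. In the authors' deposited values it passed for 3291 of all probes and 3 AP-1 probes. Taken singly against the swap error, all 3 pairs passed for FOS (adjusted p = 0.00046, 7.1e-07 and 7.4e-06 by limma for pairs 1, 2 and 3). Without pair 2 the mean FOS ratio was 1.89, and on the slides taken apart it was 3.15 and 2.61. In the authors' deposited values, the pair ratios were 1.52, 4.48 and 2.33.

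The other FOS probe, EMBV3_25127, gave no such difference. Its levels were 7.53, 7.48 and 7.66 in superstimulated cows 1, 2 and 3, against 7.36, 7.47 and 7.86 in non-superstimulated cows. The groups overlapped, and the mean ratio was -0.005 ± 0.182 (SD, n = 3 pairs; adjusted p = 0.999 by limma).

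On single arrays this second FOS probe followed the dye. Its ratio was 0.90, 0.76 and 0.72 on the arrays with the superstimulated cow in Cy5, and -0.57, -0.74 and -1.11 on the swapped arrays of the same pairs. Red thus exceeded green on all 6 arrays, by 0.57 to 1.11, and by 0.55 to 1.52 in the authors' deposited values. The dye term was 0.80 (adjusted p = 0.00051 by limma), and such a term passed for 35.1% of all probes and for 4 of the 10 AP-1 probes. Those were both FOS probes, FOSB EMBV3_11547 and JUNB. For FOS EMBV3_35481 the term was 0.27 (adjusted p = 0.0095 by limma).

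Foreground intensities of the second FOS probe stayed close to the background, at 214 to 363 in superstimulated cows and 158 to 463 in non-superstimulated cows. The 95th percentiles of the negative controls ran from 140 to 300 in the same channels. The sequences and positions of the probes were not used here, so the transcript part that each FOS probe reads was not compared.

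**Figure D1:**
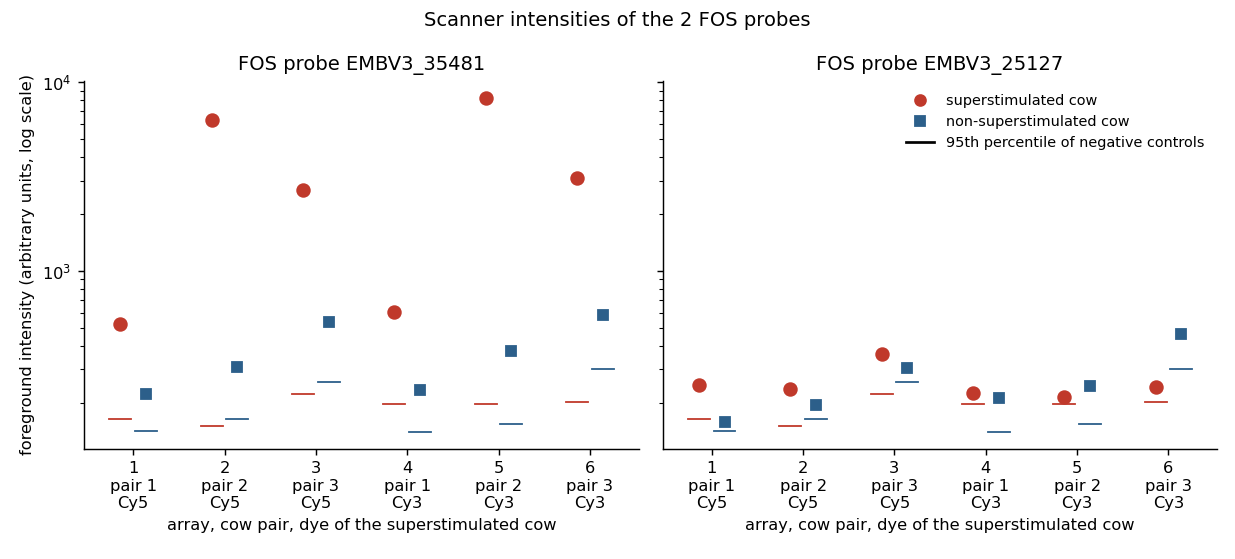
Foreground intensity (log scale, arbitrary units) of both FOS probes on the 6 arrays, in superstimulated cows (red circles) and non-superstimulated cows (blue squares), with the 95th percentile of the negative controls as short lines. With EMBV3_35481 the superstimulated cow is brighter on every array, most in pair 2 at 6285 and 8265, whereas with EMBV3_25127 no channel passes 463.

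FOSL1 encodes FRA1, a FOS protein that lacks the strong activation domain of FOS and is itself a target of AP-1. Its probe had levels of 6.47, 9.79 and 6.85 in superstimulated cows 1, 2 and 3, against 6.45, 6.53 and 6.78 in non-superstimulated cows. Superstimulated cow 2 was high and the 5 other cows lay close together. The probe exceeded the controls on 3 of 6 arrays in superstimulated cows and on 1 of 6 in non-superstimulated cows, so it entered the tests mainly through the cow in which it was high.

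In pair 2 the foreground of FOSL1 was 711 and 1137 in the superstimulated cow, against 145 and 139 in the non-superstimulated cow, where it exceeded the controls on 0 of 2 arrays. The superstimulated cow was measured as 9.6-fold higher in that pair, which is not a bound. The test against the swap error (adjusted p = 2.7e-06 by limma) set it against a channel not above the controls. Pairs 1 and 3 had 0.02 and 0.07, and the mean of 1.12 ± 1.86 (SD, n = 3 pairs; adjusted p = 0.999) became 0.05 without pair 2.

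ATF3, a stress-induced bZIP protein of the ATF family that dimerises with JUN proteins, showed the same single cow. Its levels were 6.82, 11.33 and 8.08 in superstimulated cows 1, 2 and 3, against 7.02, 6.77 and 8.0 in non-superstimulated cows. The groups overlapped. In pair 2 its foreground was 1966 and 3100 in the superstimulated cow, against 170 and 158 in the non-superstimulated cow. The latter barely exceeded the 95th percentiles of the negative controls in its channels, which were 164 and 155.

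The log2 ratios of ATF3 were 4.52 and 4.60 on the arrays of pair 2, or 23.6-fold (adjusted p = 7.6e-07 by limma against the swap error). That fold was taken over a non-superstimulated signal close to the controls. The ratios were -0.31 and -0.08 in pair 1 and -0.06 and 0.21 in pair 3. The mean of 1.48 ± 2.67 (SD, n = 3 pairs; adjusted p = 0.999) was -0.06 without pair 2. Cow 3 of both groups had a level near 8 and differed by 0.08.

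Pair 2 thus held 3 AP-1 probes with a ratio above 3 on the log2 scale, those of FOS, ATF3 and FOSL1. For FOSL1 the non-superstimulated channel was not above the controls, and for ATF3 it was barely above them. Across all probes, 0.46% were above 3 and 0.103% below -3 in pair 2. In pairs 1 and 3 no AP-1 probe passed either size, where 0.00313% and 0.325% of all probes were above 3 and 0.0282% and 0.147% below -3. By size in either direction, FOS ranked 137, 34 and 313 in pairs 1, 2 and 3, and ATF3 ranked 43 in pair 2. Against the swap error, 4 of 10 AP-1 probes were higher in pair 2, the fourth being JUND, and 12.5% of all probes were. The count of AP-1 probes that were lower in pair 2 was 0, at 14.9% of all probes.

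**Figure D2:**
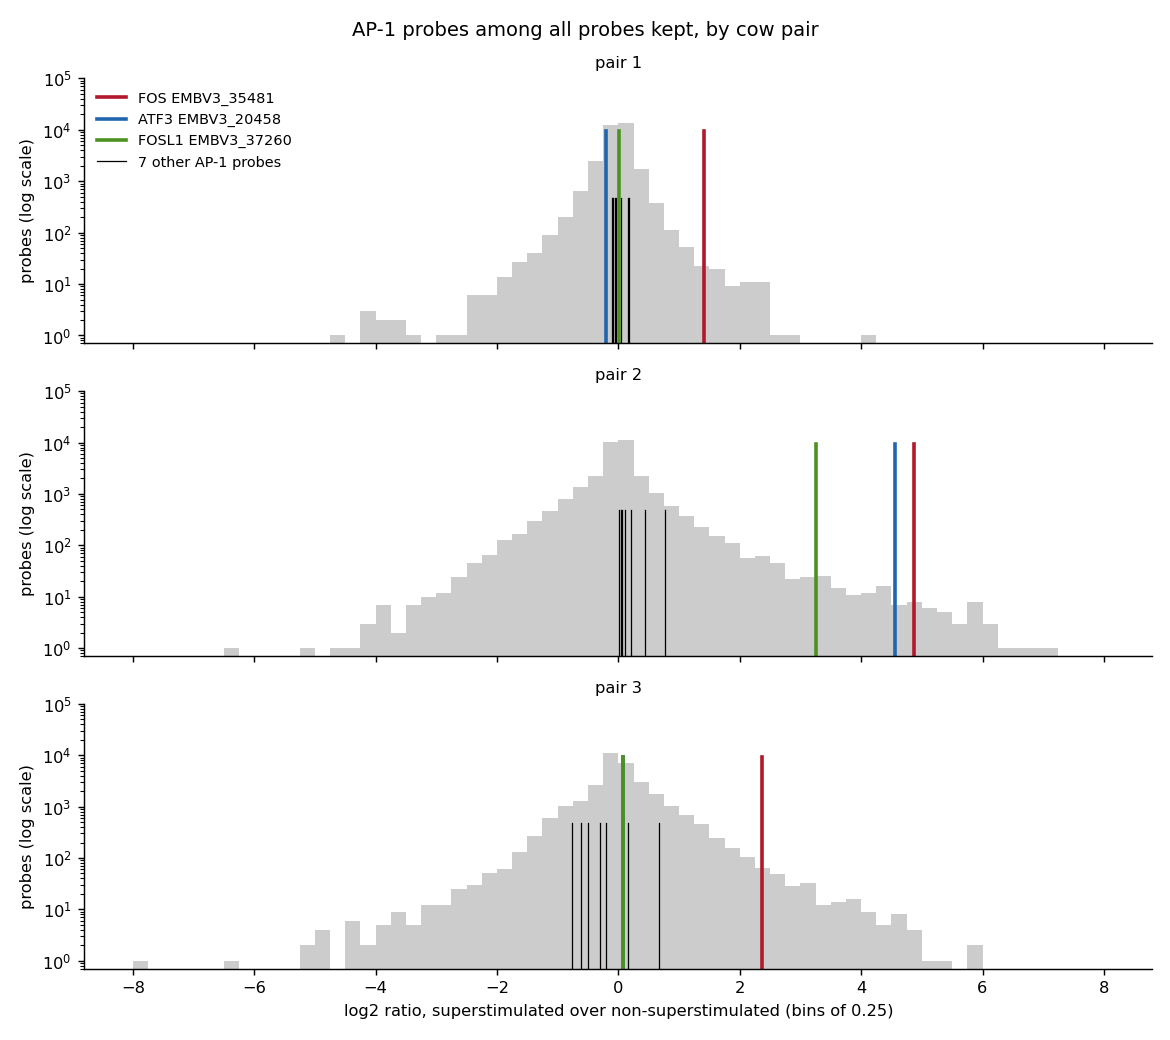
Log2 ratios (horizontal axis) of all 31957 probes as a histogram with a log count axis, by cow pair, with coloured lines for FOS EMBV3_35481, ATF3 and FOSL1 and thin black lines for the 7 other AP-1 probes. In pair 2 the coloured lines lie at 4.87, 4.56 and 3.26; in pair 3 ATF3 and FOSL1 coincide at 0.08 and 0.07.

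FOSB, a close relative of FOS with a short form that lacks the activation domain, was read by 3 probes. EMBV3_34681 had levels of 8.61, 8.87 and 8.30 in superstimulated cows, against 8.67, 8.81 and 9.06 in non-superstimulated cows. The groups overlapped. Its ratio was -0.06, 0.06 and -0.76 in pairs 1, 2 and 3, of which pair 3 passed against the swap error (adjusted p = 0.0029 by limma). The mean was -0.25 ± 0.44 (SD, n = 3 pairs; adjusted p = 0.999).

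FOSB probe EMBV3_11547 lay at 7.44, 7.31 and 7.44 in superstimulated cows, against 7.40, 7.26 and 7.27 in non-superstimulated cows. Its pair ratios of 0.04, 0.05 and 0.16 were all positive, and each was smaller than the distance of its arrays from the mean of their swap, which was 0.25, 0.45 and 0.24. Positive ratios in all 3 pairs were held by 3 AP-1 probes, of FOS, FOSB and FOSL1, where 10.4% of all probes held them, and negative ones by 0, where 12% of all probes did. The FOSL1 ratios of 0.02 and 0.07 in pairs 1 and 3 were also smaller than that distance, which was 0.16 and 0.22. In pair 1 FOSL1 exceeded the controls on 0 arrays in either cow. The signs of FOSB and FOSL1 thus carry little weight. The third probe, EMBV3_22127, exceeded the controls in 1 of 12 channels and was left out of the tests.

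FOSL2 encodes FRA2, another FOS protein without the strong activation domain. Probe EMBV3_42124 had levels of 7.30, 7.83 and 7.92 in superstimulated cows, against 7.39, 7.39 and 8.54 in non-superstimulated cows. Its pair ratios were -0.09, 0.44 and -0.62. Probe EMBV3_41390 went the same way in each pair with smaller values, from -0.30 to 0.11, and exceeded the controls on 2 of 6 arrays in superstimulated cows and 4 of 6 in non-superstimulated cows. Both were lower in pair 3 against the swap error (adjusted p = 0.042 and 0.049 by limma). For EMBV3_41390 that call rests on signals near the controls, which the superstimulated cow exceeded there on 0 of 2 arrays and the non-superstimulated cow on 1. Their means were -0.09 ± 0.53 and -0.08 ± 0.21 (SD, n = 3 pairs).

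JUND, the most constantly expressed JUN protein, had levels of 7.92, 8.38 and 8.31 in superstimulated cows, against 7.75, 7.61 and 8.81 in non-superstimulated cows. Non-superstimulated cow 3 was the highest of all 6. The ratio was 0.18 in pair 1, 0.76 in pair 2 (adjusted p = 0.0007 by limma against the swap error) and -0.51 in pair 3 (adjusted p = 0.0039). The mean was 0.14 ± 0.64 (SD, n = 3 pairs; adjusted p = 0.999), and without pair 2 it was -0.16.

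JUNB, which competes with JUN for partners and can restrain it, had levels of 7.08, 7.23 and 7.16 in superstimulated cows, against 7.19, 7.02 and 6.50 in non-superstimulated cows. The groups overlapped, and non-superstimulated cow 3 was the lowest of all 6. The ratio was -0.11, 0.21 and 0.66 in pairs 1, 2 and 3, of which pair 3 passed against the swap error (adjusted p = 0.001 by limma). There the superstimulated cow exceeded the controls on 1 of 2 arrays and the non-superstimulated cow on 0. The mean was 0.25 ± 0.39 (SD, n = 3 pairs; adjusted p = 0.999).

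JUN, the main activating partner of FOS, exceeded the controls on 0 of 6 arrays in superstimulated cows and on 0 of 6 in non-superstimulated cows. Its single probe therefore gives no ratio, and it does not show that JUN RNA was absent.

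**Figure D3:**
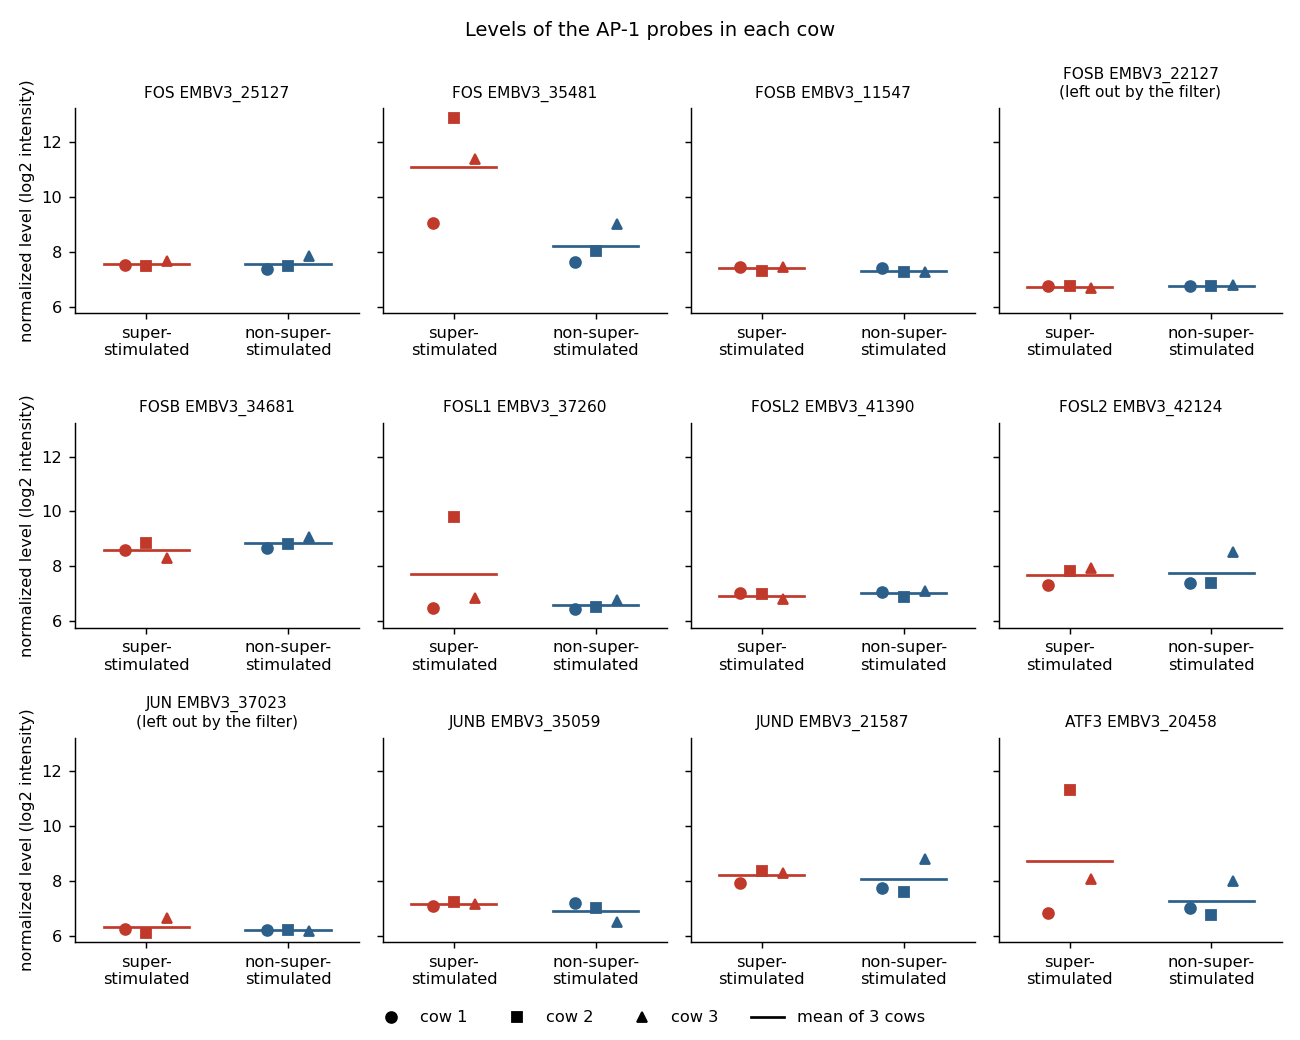
Normalized log2 level of each of the 12 AP-1 probes in superstimulated cows (red, left) and non-superstimulated cows (blue, right), with 1 symbol per cow and a line at the mean of 3 cows; levels of different probes are not comparable. The groups separate for FOS EMBV3_35481, and superstimulated cow 2 stands alone for FOSL1 at 9.79 and ATF3 at 11.33.

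Pair 3 went in both directions. FOS and JUNB were higher in the superstimulated cow against the swap error, 2 of 10 AP-1 probes where 21.4% of all probes were, and FOSB EMBV3_34681, both FOSL2 probes and JUND were lower, 4 of 10 where 16.1% of all probes were. Non-superstimulated cow 3 had the highest level of the 6 cows for these FOSB and JUND probes and both FOSL2 probes. The calls for JUNB and FOSL2 EMBV3_41390 rest on signals near the controls, as given above, and FOSL2 counts here through 2 probes. In pair 1 FOS was the 1 AP-1 probe that was higher, where 2.65% of all probes were, and 0 were lower, where 4.27% of all probes were.

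**Figure D4:**
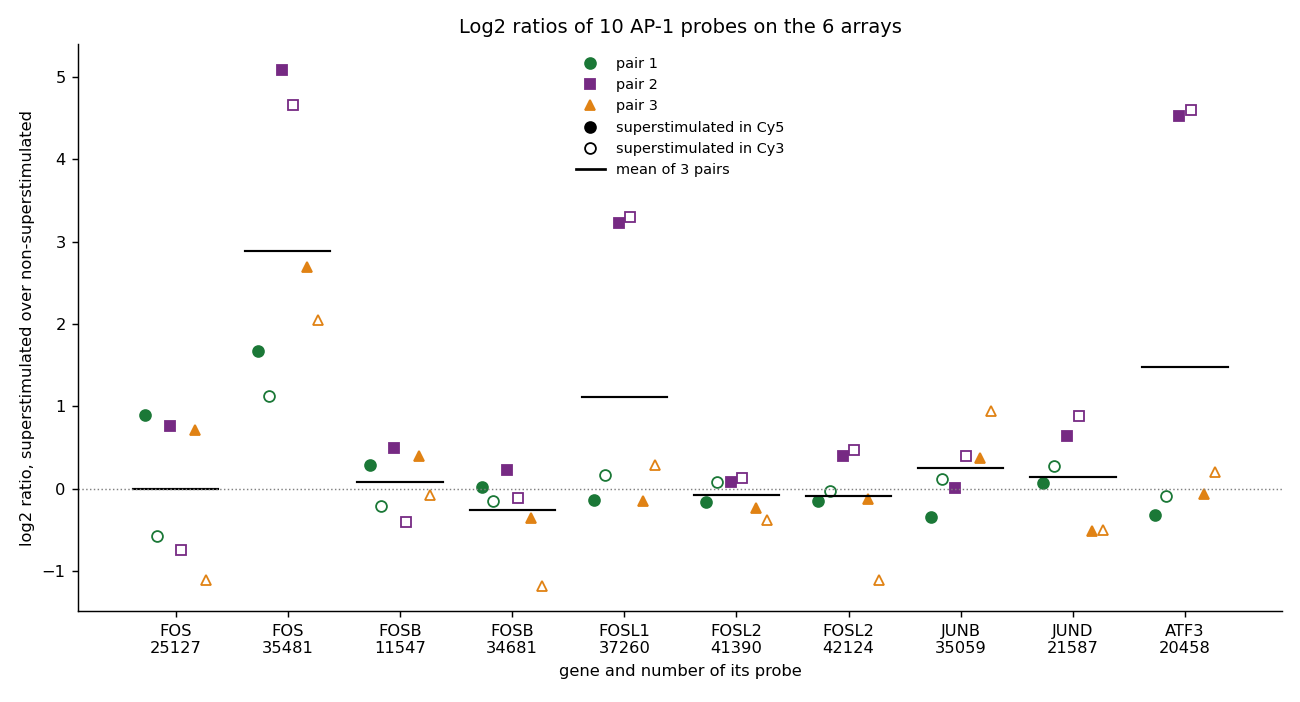
Log2 ratio of superstimulated over non-superstimulated cows for the 10 AP-1 probes tested, on each of the 6 arrays; colour and shape give the pair, filled symbols the arrays with the superstimulated cow in Cy5, open symbols those with it in Cy3, and black lines the mean of 3 pairs. FOS EMBV3_35481 is positive on all 6 arrays, FOS EMBV3_25127 changes sign with the dye, and FOSL1 and ATF3 are high in pair 2 alone.

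By the rule for likeness, the probes most like FOS EMBV3_35481 over the 6 cows were those of FSTL3, NPY1R, WDR37, RCAN1 and SRPK2, with Pearson correlations of 0.992, 0.968, 0.966, 0.961 and 0.958 and Spearman correlations of 0.943, 0.886, 0.943, 0.829 and 0.829. They were taken from probes whose level spanned at least 2 log2 units, and cows of a pair share arrays, so these values only describe the 6 cows. FSTL3, a secreted protein that binds activin, had levels of 9.06, 12.13 and 10.76 in superstimulated cows, against 8.25, 8.83 and 9.28 in non-superstimulated cows. RCAN1, an inhibitor of calcineurin, had 8.31, 12.69 and 11.77 in superstimulated cows, against 8.29, 8.14 and 8.25 in non-superstimulated cows. Other probes of RCAN1 had mean ratios of 1.10 and 0.08 and others of NPY1R 0.52 and 0.17, beside 2.70 and 2.57 for the probes named, so these genes too had probes that disagreed.

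The same measure was taken for ATF3 and FOSL1 after their values were seen. KRT18, a simple epithelial keratin with a known AP-1 site, correlated with ATF3 at 0.998 and had 6.72, 8.95 and 7.43 in superstimulated cows, against 6.81, 6.80 and 7.30 in non-superstimulated cows. BAALC and BDNF correlated with FOSL1 at 0.999 and 0.998. The Spearman correlation was 0.943 for each of these 3 probes. ATF3 and FOSL1 were far higher in superstimulated cow 2 than elsewhere, so the measure picks probes that are high in that cow. That these 3 had their highest level there is therefore no separate result. BAALC had 3.40 in pair 2, but another BAALC probe had 0.58 there.

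Around AP-1, the list of other bZIP factors had 18 measured genes of 28, taking the brightest probe of each gene. Their median log2 ratio was 0.23, against -0.02 for all 12332 genes, with 14 higher and 4 lower than 0, where 45.3% of all genes were higher. Of the 18 genes, 9 exceeded the controls in both channels of all arrays. The number past an adjusted p was 0 of 18. At an unadjusted p under 0.05 by limma, 1 was higher, BATF2, as were 197 of all 12332 genes. On the lower side there were 0, and 329 of all genes. In pair 2, against the swap error, 9 of 18 were higher and 1 was lower, where 13.3% of all genes were higher and 21.1% lower. In pair 3 there were 8 and 2, where 26.5% of all genes were higher and 18.9% lower, and in pair 1 there were 0 and 0, where 3.25% of all genes were higher and 5.83% lower.

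The bZIP factors with the smallest p were BATF2, MAFG and CEBPG. BATF2, a partner of JUN proteins, had 0.31 ± 0.13, the small MAF protein MAFG 0.40 ± 0.31 and CEBPG 0.68 ± 0.61 (SD, n = 3 pairs; adjusted p = 0.999 each by limma). CEBPD, chosen after its values were seen, had -0.11, 2.76 and 0.71 in pairs 1, 2 and 3. In superstimulated cows its level was 11.86, 15.13 and 14.82, against 11.97, 12.38 and 14.11 in non-superstimulated cows, where cow 3 was again high. Another CEBPD probe gave 0.01, 1.49 and 0.49.

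Of 33 kinases, phosphatases and factors that induce or modify FOS and JUN, 24 were measured, with a median of 0.02 and 12 on each side of 0. Of the 24, 14 exceeded the controls in both channels of all arrays. The number past an adjusted p was 0 of 24, and 0 passed an unadjusted p under 0.05. In pair 2, 6 (25%, against 13.3% of all genes) were higher and 2 (8.33%, against 21.1%) lower against the swap error. In pair 3, 9 (37.5%, against 26.5%) were higher and 5 (20.8%, against 18.9%) lower. In pair 1, 0 (against 3.25%) were higher and 1 (4.17%, against 5.83%) was lower. MAPK14, the p38 kinase, had 0.93 ± 0.71, MAPK9, a kinase of JUN, 0.29 ± 0.21 and MAPK10, another, -0.24 ± 0.11 (SD, n = 3 pairs; adjusted p = 0.999 each). The MAPK10 probe exceeded the controls on 3 of 6 arrays in superstimulated cows and 6 of 6 in non-superstimulated cows. DUSP1, a phosphatase that switches off MAPK14, MAPK9 and MAPK10 and is itself an immediate early gene, was chosen after its values were seen. It had 8.66, 10.82 and 9.12 in superstimulated cows, against 8.58, 8.26 and 8.07 in non-superstimulated cows, so that superstimulated cow 2 was again the highest. The groups nearly met, at 8.66 in superstimulated cow 1 and 8.58 in non-superstimulated cow 1. Of all probes, 2.59% separated the groups upward, and the unadjusted p of DUSP1 was 0.107 by limma.

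Of 30 genes with known AP-1 sites, 20 were measured, with a median of 0.11 and 14 higher and 6 lower than 0, where 45.3% of all genes were higher. Of the 20, 7 exceeded the controls in both channels of all arrays. The number past an adjusted p was 0 of 20, and 0 passed an unadjusted p under 0.05. In pair 2, 4 (20%, against 13.3% of all genes) were higher and 3 (15%, against 21.1%) lower against the swap error. In pair 3, 7 (35%, against 26.5%) were higher and 3 (15%, against 18.9%) lower, and in pair 1, 3 (15%, against 3.25%) were higher and 3 (15%, against 5.83%) lower. ODC1, the first enzyme of polyamine synthesis, had 0.34 ± 0.28, the urokinase receptor PLAUR 0.47 ± 0.42 and TIMP1, an inhibitor of metalloproteinases, 1.86 ± 2.0 (SD, n = 3 pairs; adjusted p = 0.999 each by limma). TIMP1 had 6.86, 10.89 and 10.88 in superstimulated cows, against 7.27, 7.55 and 8.22 in non-superstimulated cows, so that superstimulated cow 1 was the lowest of the 6. Its probe exceeded the controls on 4 of 6 arrays in superstimulated cows and 6 of 6 in non-superstimulated cows.

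**Figure D5:**
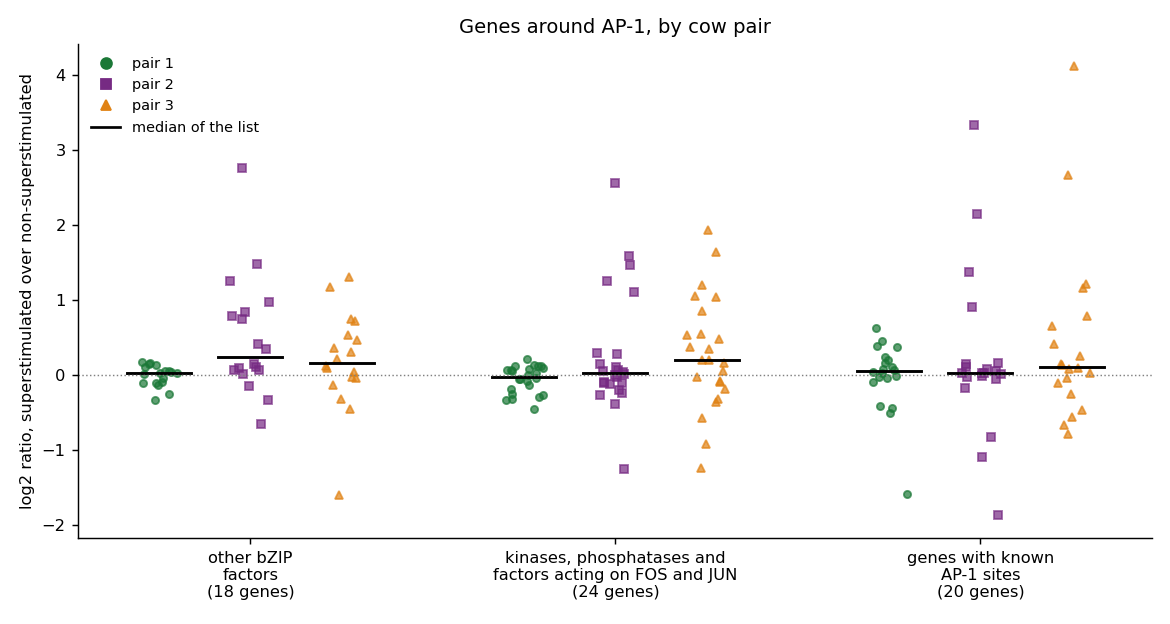
Log2 ratio of superstimulated over non-superstimulated cows by pair for the genes of the 3 lists around AP-1, 1 point per gene by its brightest probe, with a line at the median of the list. The list medians in pair 1 lie between -0.02 and 0.05, and in pair 2 the bZIP factors have a median of 0.25 with CEBPD highest at 2.76.

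Marker lists of other cell types are given with their leading gene apart, because 1 gene made up most of several sums. LUM, a matrix proteoglycan among 10 theca and stroma markers, had a linear intensity of 3552, 25119 and 20542 in superstimulated cows, against 3694, 1543 and 987 in non-superstimulated cows. The 9 others summed to 9779, 3407 and 7005 in superstimulated cows, against 7198, 3992 and 8441 in non-superstimulated cows, and overlapped. The median log2 ratio of the 10 was -0.01 in pairs 2 and 3. Against the swap error, 3 were higher and 3 lower in pair 2 (30% each, against 13.3% and 21.1% of all genes). In pair 3, 4 were higher and 2 lower (40% and 20%, against 26.5% and 18.9%).

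PGR, the progesterone receptor, which the surge of luteinizing hormone is known to induce, led 7 markers of luteinized cells with 2490, 34611 and 1193 in superstimulated cows, against 2312, 1547 and 693 in non-superstimulated cows. It was far higher in superstimulated cow 2 than in the 5 other cows, like FOSL1 and ATF3. The 6 other markers summed to 3333, 6139 and 5088, against 9564, 4043 and 1373. The 7 were mixed in pair 2, with 3 higher and 3 lower against the swap error. Each count is 42.9% of the 7, where 13.3% of all genes were higher and 21.1% lower. In that pair SCARB1 had 2.64 and CYP11A1 1.30, whereas HSD3B1 had -3.22, PTGS2 -1.88 and LHCGR -0.73. These last 3 had 1.84, 4.12 and 0.10 in pair 3. There 4 of the 7 were higher and 1 lower (57.1% and 14.3%, against 26.5% and 18.9% of all genes). In pair 1, 0 were higher and 3 lower (0% and 42.9%, against 3.25% and 5.83%).

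PTPRC made up most of the intensity of 5 leukocyte markers, at 2557, 2456 and 2930 in superstimulated cows, against 2193, 2449 and 5944 in non-superstimulated cows. The 4 others summed to 493 to 589 in superstimulated cows and 496 to 534 in non-superstimulated cows. The 11 granulosa markers summed to 86052, 65338 and 81476, against 74324, 79141 and 74015, and the 10 without INHA to 49315, 40318 and 48045, against 51723, 48645 and 61477. Single markers moved more than these sums. Against the swap error, 2 of the 11 were higher and 5 lower in pair 2. These are 18.2% and 45.5%, where 13.3% and 21.1% of all genes were. In pair 3, 3 were higher and 4 lower (27.3% and 36.4%, against 26.5% and 18.9%). In pair 1, 2 were higher and 3 lower (18.2% and 27.3%, against 3.25% and 5.83%). The 5 endothelial markers summed to 705 to 744 in superstimulated cows and 694 to 778 in non-superstimulated cows, the 5 red cell markers to 631 to 723 and 657 to 734, and the 6 oocyte markers to 778 to 818 and 739 to 810. The part of other cell types in the AP-1 ratios was not tested, and in such samples fewer cells of a type and less RNA per cell cannot be told apart.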

How the data were processed

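Per the file headers, the deposited scanner tables give each spot's intensity in red and green with its surrounding background, which had not been subtracted. Trizol RNA went through 2 rounds of T7 amplification before Cy3 and Cy5 labelling, per the labels' protocols; such amplification can distort levels. The authors' deposited log2 values were tried instead; how they were normalized and centred stays unknown here. The columns correlated at 0.739 to 0.868 with red over green of the same arrays and at most at 0.335 with another array. This gives the array and the direction but not the scale. The medians of the columns were -0.00433, -0.0115, -0.0348, -0.011, -0.00625 and -0.00797 for arrays 1 to 6.

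Of 45220 spots per array, 8 without a name and 42 marked as ignored were left out. Foreground means were corrected for background medians by normexp (offset 50, which pulls dim ratios toward 0), then loess within arrays with control spots at weight 0. Probes were kept if above the 95th percentile of 756 negative control spots. The arrays of a swap were averaged, and 3 pairs tested against 0 with lmFit and eBayes (R 4.3.3, limma 3.58.1) and Benjamini-Hochberg adjustment over 31957 probes. Pairs were compared with each other in a model of 6 arrays with terms for pair and dye. Aquantile normalization of the separate channels gave the level of each cow. The number of arrays limits precision. Steps were tested on simulated data. Figures used Python 3.11.15 and matplotlib 3.10.9.

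Of 43794 probes, 21790 had 1 gene symbol, 0 had several and 22004 were unnamed here. Symbols from the platform's annotation, which can be old, were updated through a RefSeq table of ARS-UCD2.0: 20068 matched a symbol, 1644 a synonym and 78 neither. All 8 AP-1 symbols matched. Members and lists were chosen with earlier results of these data known. The rule for named genes took every AP-1 probe, up to 3 genes per list with the smallest p, and the 5 probes of other named genes most like the brightest FOS probe in level over the 6 cows.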

Additional observations from a re-analysis of the deposited data

How the results depend on the processing

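In every setting tried, 0 probes in all and 0 of the AP-1 probes passed an adjusted p of 0.05 for the group ratio, also without any 1 pair; the lowest adjusted p over all probes was 0.0503, with 6 independent arrays. At an unadjusted p under 0.05 there were 1040 probes, and 4510 on the forward slide, 3796 on the swapped slide, 638 without pair 2, 565 with cows unpaired and 443 of 12332 genes with the brightest probe each. Between 0 and 3 AP-1 probes were among these. The AP-1 count was 0 without pair 3, where 1344 of 31957 probes passed, and 3 on the forward slide, where 4510 of 31957 did. Deviations from the group mean correlated at 0.195, 0.048 and 0.3 between same-numbered cows, which share arrays, so that the numbers were not shown to pair the animals. With the pair as a random replicate block the adjusted count was 0 and the unadjusted one 1901, and with 6 independent arrays and no replicate block they were 0 and 3072. Of 164 AP-1 ratios under other settings, 148 kept their sign and their side of the threshold and 16 turned. FOS EMBV3_25127, at -0.005, had 0.001 with an offset of 16, 0.022 with plain subtraction, 0.028 without loess, 0.793 on the forward slide and 0.014 by the authors' log2 values, and leaving out a pair gave -0.091 to 0.09. FOSL2 EMBV3_42124 had 0.024 without loess, 0.043 on the forward slide and 0.092 by the authors' log2 values, and leaving out a pair gave -0.351 to 0.178; FOSL2 EMBV3_41390 had -0.167 to 0.036. FOSB EMBV3_11547 had -0.228 on the swapped slide and -0.073 in the deposited values, and JUND had -0.038 there and -0.164 to 0.47 without a pair. For ATF3 the range on leaving out a pair was -0.06 to 2.318. With the authors' log2 values there were 3291 rather than 12887 probes that differed between pairs, and 3 rather than 7 AP-1 probes, those of FOS EMBV3_35481, FOSL1 and ATF3; without a pair these counts were 9451 to 10598 and 4 to 6, with 4 without pair 2. The cause was not tested. FOSL1, ATF3, JUNB and FOSL2 EMBV3_41390 lay near the negative controls in part of the arrays, which limits their ratios.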
